A study of Homo sapiens with 12 samples.

Results

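The comparison described here is JQ1 alone against vehicle in MDA-MB-231 cells, an established human cell line derived from a triple-negative breast cancer. Its members were chosen by treatment label alone: the 3 libraries treated with JQ1 at 25 µmol/L and the 3 control libraries treated with DMSO, which makes 6 of the 12 libraries in a series of 4 groups. Both groups are labelled as wild type and share the cell line and the RNA protocol. The remaining 6 libraries, from cells given the agent labelled CAR with or without JQ1, took no part in the comparison. The model is 1 cell line at 1 dose, no treatment time is given in the labels, and nothing says whether replicates were separate cultures. Of the 16384 genes listed, 12442 had enough reads in the 6 libraries to be tested, and these are the genes described below.

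JQ1 is a small molecule that occupies the acetyl-lysine pocket of the BET bromodomain proteins, among them BRD2, BRD3 and the testis protein BRDT, and so releases them from acetylated chromatin. BET proteins help to recruit the elongation kinase P-TEFb (CDK9 with a cyclin T), which frees RNA polymerase II from its pause close to the start of genes. HEXIM1 holds P-TEFb inactive in the 7SK complex, and a rise of HEXIM1 mRNA is widely used as a readout of BET inhibition.

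The libraries held between 17449715 and 19020019 counts. Levels are given in CPM, the count scaled to the size of its library after correction with edgeR's TMM factors. At this depth 3 counts in 1 library came to between 0.1508 and 0.1793 CPM with these factors applied. The 10 most abundant genes took 4.26% to 4.44% of the counts in DMSO and 6.76% to 6.92% in JQ1. DMSO replicate 3 stood apart from the other DMSO libraries: set beside them it gave a chi-square per degree of freedom of 10.63 and 12.61, against 1.461 to 2.314 for the other pairs of replicates, and its deviations were related to transcript length (Spearman's rho -0.722 across 6445 genes). Long transcripts were lower and short transcripts higher in that library, so its value is given separately wherever it departs. Of 8 markers of the cell line, CD44, EGFR, AXL, vimentin (VIM), moesin (MSN), caveolin 1 (CAV1) and fibronectin (FN1) were abundant in every library (lowest value 296 CPM, for CAV1 in JQ1 replicate 3), and SPARC lay between 16 and 37.8 CPM.

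Luminal and hormone receptor markers, and those of other cell types, were checked too. In the luminal and hormone receptor list of 9 genes, the oestrogen receptor gene ESR1 had 3, 4 and 1 counts in DMSO and 0, 0 and 0 in JQ1, and the epithelial cadherin gene CDH1 had at most 13 counts in any library. The keratin KRT8 was abundant, at 694, 686 and 760 CPM in DMSO and 728, 721 and 759 CPM in JQ1. The tested genes of this list summed to between 1232 and 1361 CPM in DMSO and between 1186 and 1248 CPM in JQ1. Its 5 tested genes were divided: ERBB2, a receptor kinase, rose 1.35-fold, the keratin KRT18, the luminal factor GATA3 and the adhesion protein EPCAM fell 1.35-fold, 3.15-fold and 4.82-fold, and KRT8 was not called (2 higher without DMSO replicate 3, KRT8 being the second). Of the 5 leukocyte markers, 2 were tested. These gave a sum of between 127 and 138 CPM in DMSO and between 92.8 and 98.9 CPM in JQ1. Nearly all of it came from CD68, a lysosomal membrane protein used to mark macrophages, which fell 1.4-fold, while CD3E was at 0 or not listed and the pan-leukocyte gene PTPRC had at most 1 count in a library. Of the 5 fibroblast markers, the 2 tested summed to between 38 and 40.2 CPM in DMSO and to 102 CPM in each JQ1 library. The receptor PDGFRB rose 3.1-fold (32.8, 33 and 30.2 CPM to 98.9, 99.8 and 99 CPM), COL1A1 fell 2.33-fold, and PDGFRA, DCN and LUM had at most 3 counts in any library. Of 4 endothelial markers, the 2 tested summed to at most 8.08 CPM in any library, and CDH5 was at 0. SERPINA1, the only 1 of 6 liver markers that was tested, reached at most 3.07 CPM. The part of these markers in the results below was not tested.

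Most of the measured transcriptome differed between JQ1 and DMSO. Of 12442 genes put to the quasi-likelihood F test of edgeR, 10232 (82.2%) had a Benjamini-Hochberg adjusted p under 0.05; 5099 (41.0%) were higher and 5133 (41.3%) were lower with JQ1. The median size of the log2 change was 0.60, and its median with sign was -0.01. Large falls outnumbered large rises: 2238 genes (18.0%) fell at least 2-fold and 1435 (11.5%) rose at least 2-fold, while 965 (7.76%) fell and 297 (2.39%) rose at least 4-fold. Among called genes the replicates of the groups did not overlap for 10059 genes (80.8% of those tested). Against this background a single called gene is common, so the counts of each gene group below are to be read beside these shares. Levels are relative to the library, so a change in the total RNA per cell would not be seen, and in a bulk sample fewer cells of a type and less RNA per cell cannot be told apart. Scaling libraries by their total counts alone shifted the median change by -0.12 and moved the split to 4375 higher and 5828 lower, which is 42.9% of called genes higher against 49.8%.

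**Figure D1:**
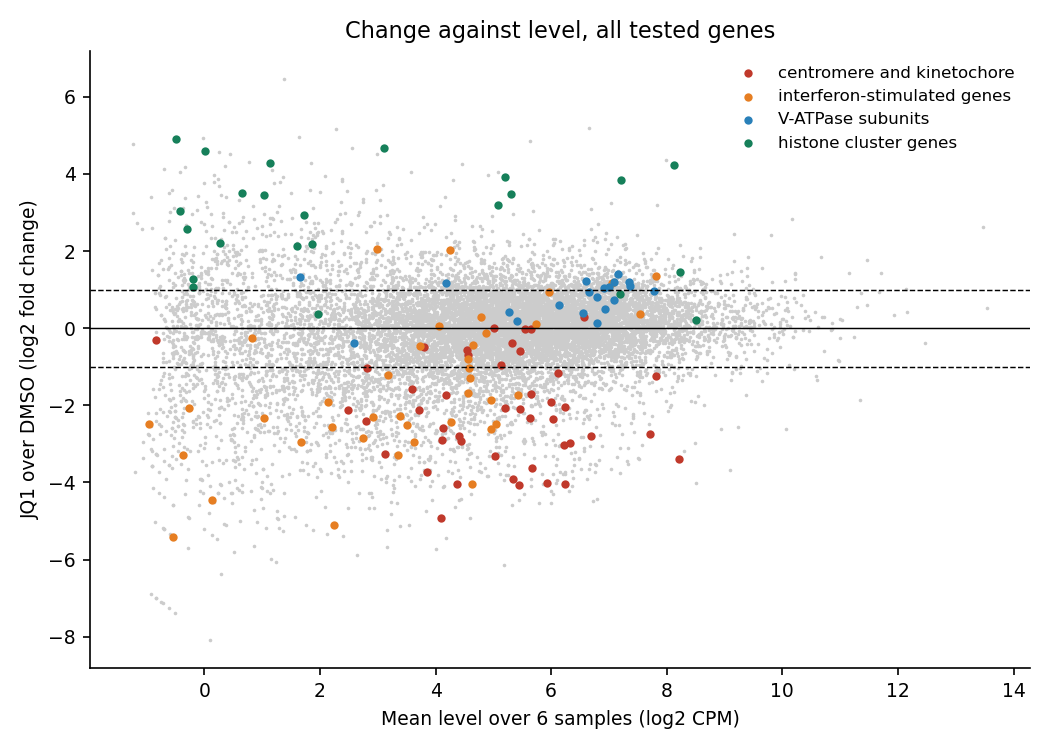
Log2 fold change of JQ1 over DMSO against mean log2 CPM for the 12442 tested genes (grey), with histone cluster genes, V-ATPase subunits, kinetochore genes and interferon-stimulated genes in colour; the dashed lines mark 2-fold. Histone and V-ATPase genes lie mostly above 0 and kinetochore and interferon genes mostly below it.

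The direct target family and its partners changed by small amounts apart from a few members. HEXIM1, the P-TEFb inhibitor, stood at 143, 140 and 157 CPM in DMSO and 621, 617 and 615 CPM in JQ1. All 3 JQ1 libraries lay far above the DMSO libraries, a 4.21-fold rise (log2 2.07 ± 0.053 SE, n = 3 per group, adjusted p = 9.7e-13 by edgeR). BRD2 went from 437, 436 and 430 CPM to 923, 940 and 957 CPM, a 2.16-fold rise (log2 1.11 ± 0.043). BRD3 (55.3, 51.1 and 50.2 CPM in DMSO; 47.9, 49.6 and 51.3 CPM in JQ1) overlapped between the groups and was not called (log2 -0.07 ± 0.058, adjusted p = 0.255 by edgeR). Under total count scaling BRD3 passed as lower (log2 -0.20, adjusted p = 0.0075 by edgeR), as it did with upper-quartile scaling (log2 -0.14, adjusted p = 0.0421 by edgeR). BRDT had 1 count in the 3 DMSO libraries and 0 in the 3 JQ1 libraries. The elongation factor subunit SUPT5H, part of DSIF, rose 2.01-fold, and the pause factor subunits NELFCD and NELFA fell 1.62-fold and 1.32-fold. In all, 10 of the 24 tested genes of the BET and P-TEFb list rose and 6 fell (3 without JQ1 replicate 2), with a median log2 change of 0.11 that became -0.02 when libraries were scaled by total counts. Of 44 Mediator and RNA polymerase II subunits, 20 rose and 14 fell (median 0.13). The largest subunit of the polymerase, POLR2A, rose from 337, 358 and 292 CPM to 875, 907 and 962 CPM, the Mediator subunit MED29 rose 2.17-fold, and MED22 and MED24 fell 2.51-fold and 2.13-fold. The oncogene MYC, a target often followed in BET inhibitor studies, was at 125, 125 and 125 CPM in DMSO and at 129, 129 and 133 CPM in JQ1 (log2 0.06 ± 0.045, adjusted p = 0.266 by edgeR). The sign of this difference was not stable: it became -0.07 when libraries were scaled by total counts and -0.01 when scaled by their upper quartile.

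The engines of the cell cycle fell unevenly. Among 24 cyclins and cyclin-dependent kinases, 15 fell, 8 of them at least 2-fold, and 7 rose by less than 2-fold (median -0.58). The S and G2 phase cyclin CCNA2 went from 195, 207 and 197 CPM to 17.2, 13.9 and 13.8 CPM (13.3-fold lower). The mitotic cyclin CCNB2 went from 105, 103 and 107 CPM to 9.01, 7.1 and 6.93 CPM (13.7-fold lower), and their kinase CDK1 from 145, 154 and 157 CPM to 16.2, 14.4 and 12.9 CPM (10.5-fold lower). No JQ1 library reached the lowest DMSO library for any of these genes. The members that rose most surely were CCNI (1.54-fold) and CCNL2 (1.72-fold), a cyclin tied to splicing. The kinase inhibitors moved in both directions, 3 of 6 each way. p21 (CDKN1A), which blocks cyclin-dependent kinases, rose from 55.5, 58.5 and 58 CPM to 171, 171 and 173 CPM, and p27 (CDKN1B) rose 1.86-fold. The phosphatase CDKN3 fell 3.42-fold and the CDK4/6 inhibitor CDKN2C 1.5-fold. Of 21 factors of the E2F, RB and MuvB families, which switch cell cycle genes on and off, 18 fell and 1 rose (median -0.64). MYBL2, which joins the MuvB complex in S phase, fell 11.9-fold, FOXM1, which activates mitotic genes, 4.87-fold, E2F3 4.6-fold and the pocket protein RBL1 4.03-fold. The MuvB core subunit LIN37 was the member that rose (8.28, 8.18 and 7.79 CPM to 14.5, 14.4 and 15.8 CPM).

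DNA replication genes fell as a block. Of 51 genes of the replisome and DNA polymerases, 46 fell, 33 of them at least 2-fold, and 3 rose (median log2 -1.59). The helicase subunit MCM5 went from 126, 124 and 123 CPM to 12.5, 12.6 and 10.6 CPM, a 10.4-fold fall (log2 -3.38 ± 0.067, adjusted p = 1.45e-13 by edgeR). MCM10, a replication initiation factor, went from 65.1, 66.4 and 63.1 CPM to 7.52, 6.7 and 7.23 CPM. The helicase subunit MCM3 fell 4.44-fold from 412, 418 and 431 CPM, and the licensing factor CDC6 fell 4.33-fold from 155, 155 and 155 CPM. Each of these falls was far wider than the spread between replicates. The members that rose were led by the origin recognition subunit ORC4 (1.83-fold) and the polymerase epsilon subunit POLE4 (2.03-fold). E2F sites are a known feature of replication gene promoters, and the promoter of MCM3 is shown for this reason. A match to TTTCCCGC, TTTGGCGC or TTTCGCGC on either strand was found in 20 of 45 replisome promoters (44.4%), in 4.73% of the promoters of all tested genes and in 2.79% of all promoters in the RefSeq table. Promoters are 250 bases before to 50 after the first listed transcription start (RefSeq, GRCh38.p14), and motifs were counted separately, so that the same letters may serve for more than 1 motif. The MCM3 promoter is at chr6:52284693-52284992, minus strand, with the E2F matches in capitals.
MCM3: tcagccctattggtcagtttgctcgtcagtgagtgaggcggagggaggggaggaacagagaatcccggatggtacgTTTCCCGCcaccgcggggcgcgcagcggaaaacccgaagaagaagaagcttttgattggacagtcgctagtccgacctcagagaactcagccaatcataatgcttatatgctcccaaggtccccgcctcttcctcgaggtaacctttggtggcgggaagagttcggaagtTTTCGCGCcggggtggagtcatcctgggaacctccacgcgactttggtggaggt
The 20 replisome genes with a match had a median log2 change of -1.85 and the 25 without one -1.20. Over all tested genes the medians were -0.09 and 0.01. An E2F match was found in 6.19% of promoters of genes that fell at least 4-fold. The share was 5.74% for genes that rose at least 4-fold and 31.8% for histone cluster genes, which rose.

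Centromere and kinetochore genes had the lowest median of the gene lists. Of 45 centromere and kinetochore genes, 40 fell, 34 at least 2-fold and 27 at least 4-fold, and 1 rose (median -2.13). SPC25, a subunit of the NDC80 complex that holds microtubules, went from 31, 31 and 34.5 CPM to 1.1, 0.965 and 1.08 CPM, a 30.6-fold fall. NDC80 itself went from 78.1, 79 and 84.9 CPM to 4.94, 4.37 and 5.14 CPM. HJURP, the chaperone that loads the centromeric histone CENP-A, went from 139, 144 and 141 CPM to 10.1, 7.67 and 8.13 CPM, a 16.4-fold fall. In each case the 3 JQ1 libraries sat together well below the 3 DMSO libraries. The checkpoint kinase BUB1 fell 6.71-fold and ZWINT 6.97-fold, whereas SKA2, a member of the SKA complex, rose 1.22-fold. Among 24 cohesin and condensin genes, 20 fell, 12 of them at least 2-fold, and 2 rose (median -1.12). Topoisomerase II alpha (TOP2A), which untangles sister chromatids, went from 701, 705 and 639 CPM to 45.7, 41 and 39.1 CPM. The condensin I subunits NCAPG and NCAPH fell 10.4-fold and 6.74-fold and the cohesion protector CDCA5 11.4-fold. The cohesin loader NIPBL and the acetyltransferase ESCO1 were the members that rose (1.19-fold and 1.94-fold), and NIPBL was not called under total count scaling (adjusted p = 0.0986 by edgeR). In the anaphase-promoting complex and its partners, 11 of 20 genes fell and 5 rose (median -0.30), with its ubiquitin-conjugating enzyme UBE2C 21.4-fold lower, its activator CDC20 12.7-fold lower and its substrate securin (PTTG1) 5.04-fold lower, and the core moved both ways, with CDC23 2.61-fold lower and ANAPC5 and ANAPC16 1.46-fold and 1.99-fold higher. Of 15 genes of the nuclear lamina and envelope, 10 fell and 3 rose, 1 under total count scaling (median -0.32). Lamin B1 (LMNB1) went from 115, 115 and 122 CPM to 12.3, 11.8 and 11.2 CPM, and LMNB2 fell 3.12-fold. SUN1 rose 1.7-fold, and SYNE2 rose 1.44-fold (208, 217 and 137 CPM to 282, 273 and 253 CPM), the low DMSO value being replicate 3. Without that library its log2 change was 0.34 in place of 0.52, and its call was lost without JQ1 replicate 1, under total count scaling and with no filter on low counts (adjusted p = 0.0524, 0.051 and 0.0791 by edgeR).

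The promoter of HJURP is shown because mitotic genes are known to carry a cell cycle homology region. TTTGAA, on either strand, was found in 15 of 36 kinetochore promoters (41.7%) and in 8 of 20 cohesin and condensin promoters (40%), against 9.55% for all tested genes and 15.4% of all promoters in the table. Among genes that fell at least 4-fold the share was 20%, and among those that rose at least 4-fold it was 9.43%. The 15 kinetochore genes with a match had a median log2 change of -3.32 and the 21 without one -1.70. None of 45 replisome promoters had a match. The HJURP promoter lies at chr2:233854486-233854785, minus strand, and its capitals mark the TTTGAA match and its CCAAT boxes on either strand.
HJURP: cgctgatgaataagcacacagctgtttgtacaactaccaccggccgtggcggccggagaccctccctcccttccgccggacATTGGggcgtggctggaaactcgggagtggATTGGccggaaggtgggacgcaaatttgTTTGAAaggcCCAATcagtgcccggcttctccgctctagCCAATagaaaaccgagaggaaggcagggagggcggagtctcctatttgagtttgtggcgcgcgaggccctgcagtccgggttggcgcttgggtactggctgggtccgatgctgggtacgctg
CCAAT was present in 58.3% of kinetochore promoters and 60% of replisome promoters, against 36.7% for all tested genes. It was also present in 81.8% of promoters of histone cluster genes, which rose. The share was 36.3% among genes that fell at least 4-fold and 40.6% among those that rose at least 4-fold.

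Histone genes of the clusters moved the other way. All 23 histone cluster genes that could be tested rose, 20 of them at least 2-fold and 17 at least 4-fold, with a median log2 change of 3.04; the other 30 of the 53 listed did not pass the filter on low counts. Because a gene can pass that filter through the JQ1 libraries alone, the count of 23 is a description and not a test of the family. H2BC5 went from 19.3, 18 and 21.4 CPM to 283, 276 and 277 CPM, a 14.2-fold rise (log2 3.83 ± 0.063, adjusted p = 1.21e-13 by edgeR). The linker histone gene H1-2 went from 24.3, 24.1 and 36.2 CPM to 533, 518 and 539 CPM. H4C8 went from 0.404, 0.709 and 0.854 CPM to 16.2, 17.9 and 16.6 CPM. The highest DMSO value of H1-2 was that of replicate 3, and for all 3 genes every JQ1 library lay above every DMSO library. H2BC21, in the small cluster on chromosome 1, rose 15.2-fold, H2BC4 11.1-fold and H2AC6 9.18-fold (7.12, 6.22 and 6.83 CPM to 61.3, 64.9 and 59.5 CPM). Most histone mRNAs end in a stem-loop without a poly(A) tail, and the libraries were made by poly(A) selection, so these values report tailed transcripts. Histone copies are near-identical and their reads may be divided or dropped in counting. The octamer ATGCAAAT was present in 9 of 22 histone promoters (40.9%) against 1.3% for all tested genes, and TATAAA in 17 of 22 (77.3%) against 5.45%. The H2AC6 promoter (chr6:26123922-26124221, plus strand) shows the arrangement, with the octamer and the TATA box in capitals.
H2AC6: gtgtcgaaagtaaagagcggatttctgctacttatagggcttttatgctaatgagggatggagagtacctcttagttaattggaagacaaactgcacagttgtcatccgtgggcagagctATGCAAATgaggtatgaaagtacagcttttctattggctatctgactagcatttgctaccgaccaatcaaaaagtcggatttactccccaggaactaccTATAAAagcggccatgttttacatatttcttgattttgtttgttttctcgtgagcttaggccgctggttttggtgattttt
The 9 histone genes with an octamer had a median log2 change of 2.22 and the 13 without one 3.50, and the 17 with a TATA box had 2.94 against 4.23 for the 5 without one.

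**Figure D2:**
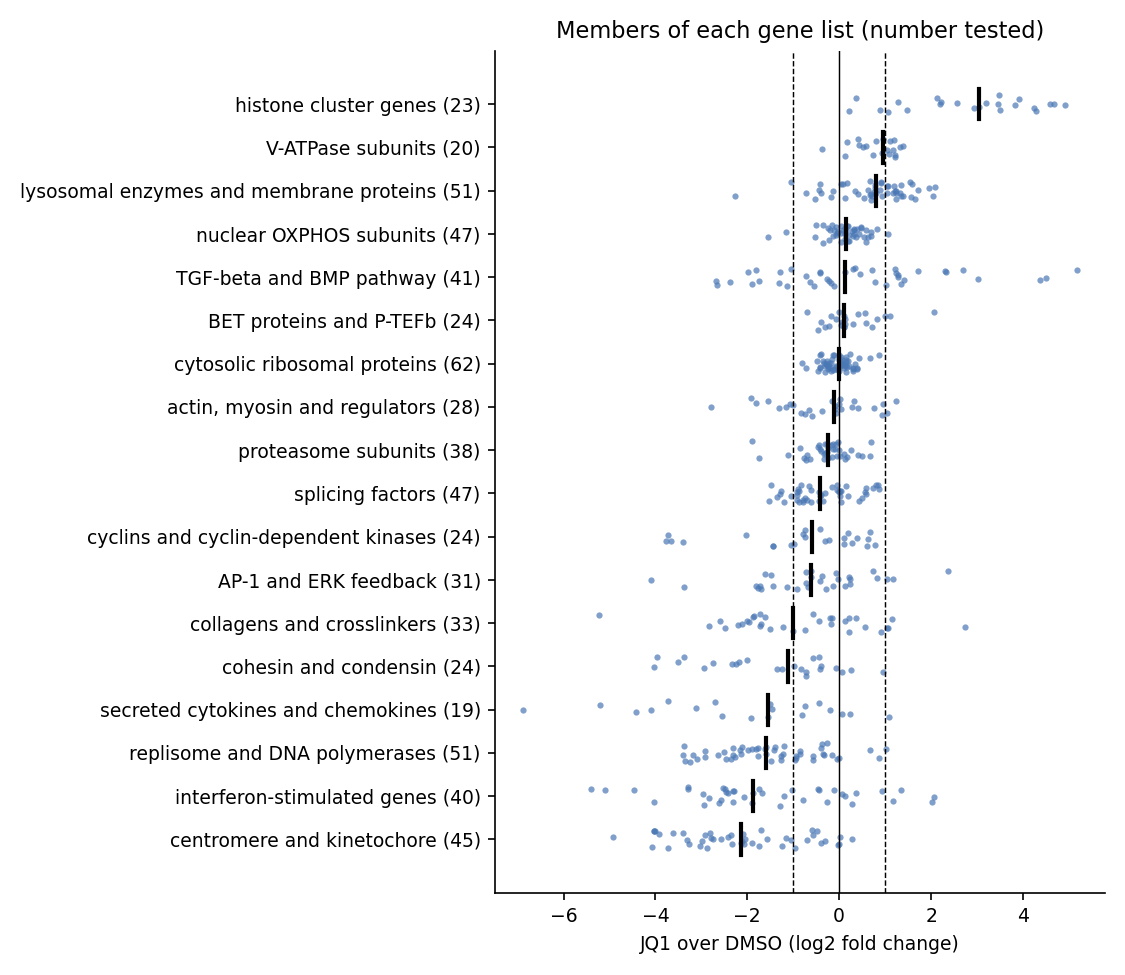
Log2 fold change of JQ1 over DMSO for each tested member (points) of 18 gene lists, with the list median as a black bar and 2-fold marked by dashed lines. Histone, V-ATPase and lysosome medians are the highest shown and the kinetochore median of -2.13 is the lowest.

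Genes of innate immunity were mostly lower with JQ1. Of 40 interferon-stimulated genes, 29 fell, 26 of them at least 2-fold and 19 at least 4-fold, and 6 rose (median -1.89). The guanylate-binding protein GBP3 went from 45.3, 46.8 and 44.3 CPM to 2.86, 2.84 and 2.63 CPM, a 16.3-fold fall (log2 -4.03 ± 0.087, adjusted p = 2.32e-13 by edgeR). IFIT3, a protein of the antiviral response, went from 55.2, 54.4 and 54.7 CPM to 10.6, 10.6 and 8.37 CPM. The replicates of these genes differed by little in either group. The ubiquitin ligase DTX3L fell 6.18-fold. Outside the list, the transactivator of MHC class II genes, CIITA, fell 28.4-fold (19.5, 18.1 and 14.9 CPM to 0.439, 0.795 and 0.598 CPM). Of the 6 members in the opposite direction, IFI6 and IRF7, a factor that drives interferon genes, rose furthest (4.16-fold and 4.08-fold, to between 12.3 and 13.5 CPM and between 28.5 and 33.5 CPM). Others were STAT2, a subunit of the factor that drives these genes (83.9, 84.1 and 78.1 CPM to 179, 187 and 185 CPM), and the dNTPase SAMHD1 (2.55-fold higher). The summed level of the list differed little, at between 1164 and 1176 CPM in DMSO and between 1131 and 1163 CPM in JQ1. Of 25 inflammasome and Toll-like receptor genes, 21 fell, 11 at least 2-fold, and 3 rose. The inflammasome sensor NLRP3 went from 10, 9.11 and 10.2 CPM to 0.33, 0.114 and 0.239 CPM (41.5-fold lower), the inflammatory caspase CASP4 fell 6.58-fold, TLR6 11-fold and TLR4 4.58-fold. The adaptor TRAF6 rose 1.77-fold, and TLR5, a low gene at under 1 CPM in DMSO, rose 2.22-fold. The list holds the receptors TLR1 to TLR6 and no others of the family, and TLR9, outside it, rose 19.6-fold to between 6.54 and 7.27 CPM. Among 19 secreted cytokines and chemokines, 15 fell, 12 at least 2-fold, and 2 rose (median -1.54). Leukaemia inhibitory factor (LIF) went from 42.6, 41.7 and 36.9 CPM to 2.25, 1.59 and 1.73 CPM, and IL11, a cytokine of the same receptor family, from 25.7, 25.6 and 31.2 CPM to 2.36, 1.42 and 0.956 CPM. CLCF1, also of that family, fell 6.53-fold. The growth factor gene CSF2 had 13, 17 and 16 counts in DMSO and 0 in every JQ1 library, and the exact 95% counting interval of the ratio begins at 10.8-fold lower. Its point in the plot of gene lists is a fitted value that depends on the prior count, and the list's median is -1.54 when CSF2 is given 3 counts over the JQ1 group. TNFSF9 rose 2.13-fold. IL18 was 1.17-fold higher, a call lost without JQ1 replicate 2 and under total count and upper-quartile scaling (adjusted p = 0.0616, 0.194 and 0.0588 by edgeR). Antigen presentation by MHC class I showed no common direction: 7 of 18 genes rose and 6 fell, with HLA-E 2.11-fold higher and the peptide trimmer ERAP2 4.25-fold lower.

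Interferon genes are known for the response element bound by STAT2 and IRF9, and GBP3 is shown with its match. GAAANNGAA on either strand was found in 20 of 30 promoters of the list (66.7%), against 6.42% for all tested genes and 8.29% of all promoters in the table. The 20 genes with a match had a median log2 change of -2.36 and the 10 without one -1.26. The motif was also found in 36.4% of promoters of histone cluster genes, which rose. The GBP3 promoter is at chr1:89022817-89023116, minus strand.
GBP3: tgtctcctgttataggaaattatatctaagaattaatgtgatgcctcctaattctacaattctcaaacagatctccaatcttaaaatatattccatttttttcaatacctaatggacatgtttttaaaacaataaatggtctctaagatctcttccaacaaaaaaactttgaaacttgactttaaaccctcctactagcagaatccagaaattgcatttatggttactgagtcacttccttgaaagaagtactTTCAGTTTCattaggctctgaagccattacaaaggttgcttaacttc
The motif GGGANTTTC of NF-kB was found in 3 of 11 cytokine promoters (27.3%) against 1.11% for all tested genes.

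Lysosome genes rose together. Of 51 genes of lysosomal enzymes and membrane proteins, 39 rose, 21 of them at least 2-fold, and 8 fell (median 0.81). Sialidase 1 (NEU1), which trims sialic acids, went from 84.4, 85.4 and 97.3 CPM to 382, 361 and 383 CPM, a 4.21-fold rise (log2 2.08 ± 0.06, adjusted p = 3.42e-12 by edgeR). Acid ceramidase (ASAH1) went from 34.6, 34 and 37.5 CPM to 148, 139 and 147 CPM. Prosaposin (PSAP), the precursor of sphingolipid activators, went from 632, 645 and 692 CPM to 1707, 1723 and 1743 CPM. All of the JQ1 libraries were above all of the DMSO libraries for these genes. Acid sphingomyelinase (SMPD1) rose 2.92-fold. Against the majority, cathepsin S (CTSS) fell 4.82-fold and the thioesterase PPT1 1.66-fold. The V-ATPase, the pump that acidifies the lysosome, rose in 19 of 20 tested subunits and accessory proteins, 9 of them at least 2-fold (median 0.95). ATP6V1A, the catalytic subunit, went from 75.2, 81.8 and 78.7 CPM to 214, 207 and 198 CPM, ATP6V0A1 rose 2.31-fold, ATP6V0D1 had a log2 rise of 1.10, and ATP6AP1 and ATP6AP2 rose 2.11-fold and 2.05-fold. The one subunit that fell, the E2 isoform ATP6V1E2, was low (5.76, 6.98 and 7.09 CPM to 5.49, 4.94 and 4.84 CPM), and its call was lost without JQ1 replicate 3 (adjusted p = 0.0504 by edgeR). CACGTG, the core of the E-box bound by TFEB and MYC family factors, was present in 10 of 33 lysosomal promoters (30.3%) and 4 of 14 V-ATPase promoters (28.6%), against 10.1% for all tested genes. Lysosomal genes with and without it changed by similar amounts (median 0.82 over 10 genes and 0.76 over 23). The share with CACGTG was 9.02% among genes that rose at least 4-fold and 7.88% among those that fell at least 4-fold. It was 17.8% for replisome promoters, whose genes mostly fell. The promoters of NEU1 (chr6:31862772-31863071, minus strand) and of the V-ATPase subunit gene ATP6V0D1 (chr16:67481108-67481407, minus strand) are shown with this match in capitals.
NEU1: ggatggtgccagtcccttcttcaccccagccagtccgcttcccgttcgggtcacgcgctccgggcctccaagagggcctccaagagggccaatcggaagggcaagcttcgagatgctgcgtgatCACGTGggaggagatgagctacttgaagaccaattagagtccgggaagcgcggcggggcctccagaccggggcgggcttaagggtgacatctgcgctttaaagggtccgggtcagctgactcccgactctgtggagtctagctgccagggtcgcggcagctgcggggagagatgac
ATP6V0D1: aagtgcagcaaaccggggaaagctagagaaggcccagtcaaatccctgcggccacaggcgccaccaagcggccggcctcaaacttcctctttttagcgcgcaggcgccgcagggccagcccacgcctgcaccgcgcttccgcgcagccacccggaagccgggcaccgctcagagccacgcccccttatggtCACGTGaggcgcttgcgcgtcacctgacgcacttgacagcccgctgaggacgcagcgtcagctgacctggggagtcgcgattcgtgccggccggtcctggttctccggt

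**Figure D3:**
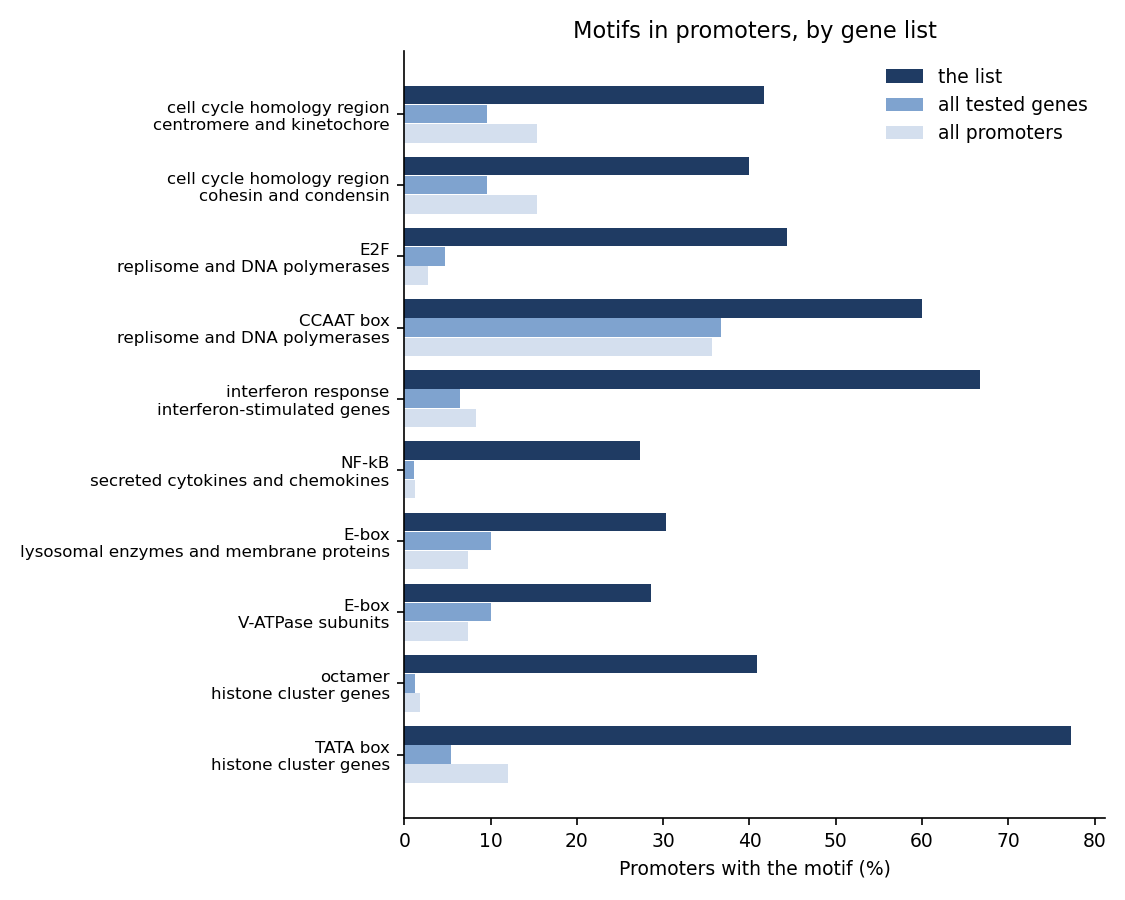
Percent of promoters that hold each motif, for the gene list named beside it (dark bars), all 10113 tested genes with a promoter (mid bars) and all 27305 promoters in the RefSeq table (light bars). In every pair shown the list has the highest share.

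Both ferritin genes rose, and the light chain had the largest rise in mean CPM of all genes tested. Ferritin light chain (FTL) went from 2998, 2975 and 3562 CPM to 19073, 19369 and 20364 CPM, a 6.17-fold rise, and ferritin heavy chain (FTH1), the other subunit of the iron store, from 1726, 1727 and 2029 CPM to 4790, 4866 and 4998 CPM. The light chain rose by the larger factor (6.17-fold against 2.67-fold), and in both genes replicate 3 was the highest of the DMSO libraries. The iron exporter ferroportin (SLC40A1) rose 2.45-fold and the metal importer SLC39A8 fell 3.53-fold. The list of 24 iron genes had no common direction, with 10 higher and 12 lower (median -0.16). Of redox enzymes, thioredoxin reductase 1 (TXNRD1) went from 1305, 1314 and 1240 CPM to 4467, 4453 and 4245 CPM.

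Metabolic pathways differed in size and direction. Of 29 enzymes of serine, glycine and one-carbon metabolism, 20 fell and 9 rose (median -0.50). Thymidylate synthase (TYMS) was 8.09-fold lower, the mitochondrial folate enzymes MTHFD1L and SHMT2 3.78-fold and 2.62-fold lower, and MTHFD1 2.88-fold lower. Cystathionine gamma-lyase (CTH), which makes cysteine, rose 4.82-fold from 7.42, 6.82 and 6.68 CPM. Cholesterol synthesis genes were divided, 12 higher and 14 lower of 28 (median -0.12). ACAT2, which makes acetoacetyl-CoA, fell 2.32-fold (201, 201 and 225 CPM to 91.7, 84.7 and 93.6 CPM). The sterol reductase TM7SF2 went from 25.9, 22.9 and 26.4 CPM to 235, 234 and 246 CPM (9.49-fold higher) and INSIG1, which retains the sterol sensor in the endoplasmic reticulum, rose 2.74-fold. Of 29 glycolytic genes, 13 rose and 10 fell, and their median of 0.09 became -0.04 under total count scaling. Pyruvate kinase (PKM) rose from 2935, 2873 and 3075 CPM to 5925, 5883 and 6236 CPM, while PDK2, which restrains pyruvate dehydrogenase, fell 4.03-fold. Nuclear genes of oxidative phosphorylation moved by small amounts: 23 of 47 rose and 9 fell (16 under total count scaling), 3 of them by at least 2-fold in either direction, among them ATP5MC1 (2.94-fold lower) and NDUFA2 (2.09-fold higher).

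Genes of ribosome biogenesis, splicing and the proteasome fell more often than they rose, and those of ribosomal proteins were divided. Of 62 cytosolic ribosomal protein genes 16 rose and 22 fell, none by 2-fold. Without DMSO replicate 3 the number that rose was 30 and the median went from -0.01 to 0.05, and under total count scaling 9 rose. RPL12 went from 873, 867 and 1050.0 CPM to 1695, 1703 and 1657 CPM and RPSA from 640.0, 645 and 717 CPM to 384, 378 and 387 CPM. Ribosome biogenesis genes fell in 30 of 40 cases and rose in 5 (median -0.48), with TCOF1, which serves ribosomal RNA synthesis, 3.99-fold lower and the pseudouridine synthase DKC1 2.08-fold lower. UBTF and RRN3, factors of RNA polymerase I, rose 1.5-fold and 1.45-fold. Splicing factors fell in 28 of 47 cases and rose in 11 (median -0.42). HNRNPL went from 249, 245 and 259 CPM to 83.8, 88.7 and 87.1 CPM, HNRNPM fell 2.81-fold, HNRNPA1 2.56-fold and PTBP1 2.43-fold, while SF3B1 rose 1.68-fold and the kinase CLK1 1.73-fold. Of 38 proteasome subunits 23 fell and 7 rose, 4 under total count scaling (median -0.25). The widest of the named falls were in the immunoproteasome subunits PSMB10 (3.75-fold) and PSMB8 (3.34-fold), and PSME4, an activator, rose 1.62-fold.

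**Figure D4:**
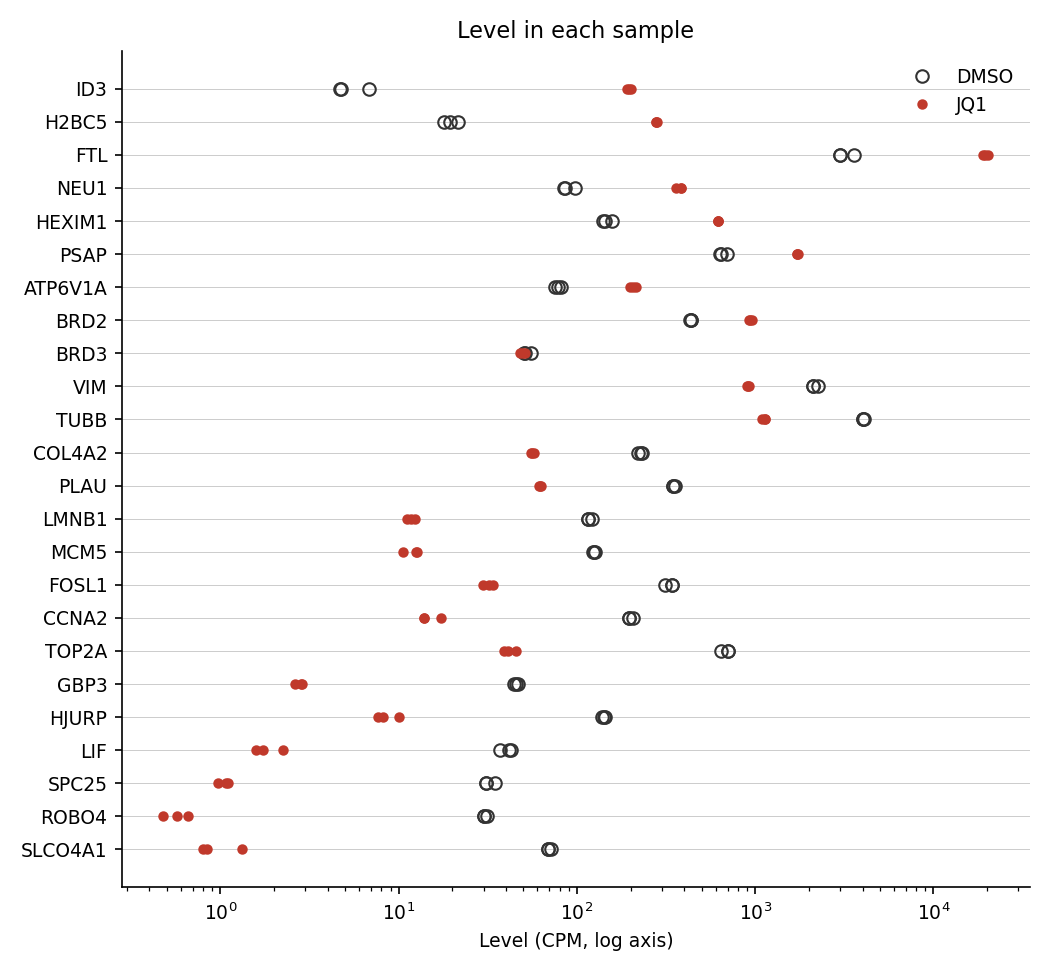
Level in CPM (log axis) in each DMSO library (open circles) and each JQ1 library (filled circles) for 24 genes named in the text, ordered by fold change. The replicates of a group lie close together, and the groups do not overlap except for BRD3.

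Signalling genes showed both the widest rises and wide falls. The TGF-beta and BMP list was divided, 21 of 41 genes higher and 19 lower, with 15 at least 2-fold higher and 11 at least 2-fold lower. The inhibitors of differentiation, helix-loop-helix proteins without a DNA-binding domain that are classic BMP targets, led the rises. ID3 (chr1:23557918-23559794) went from 4.75, 4.69 and 6.78 CPM to 192, 196 and 201 CPM, a 36.2-fold rise (log2 5.18 ± 0.094, adjusted p = 1.21e-13 by edgeR). ID1 (chr20:31605283-31606515) went from 20.9, 19.5 and 30.2 CPM to 484, 474 and 505 CPM, and ID2 (chr2:8678845-8684453) from 0.404, 0.927 and 0.704 CPM to 14.1, 16.1 and 16.2 CPM. In ID1 and ID3 the highest DMSO value was that of replicate 3, and the groups did not overlap for any of the 3 genes. The ligand BMP4 rose 2.42-fold from 220.0, 202 and 221 CPM. The activin antagonist follistatin (FST) fell 6.32-fold. Of 31 AP-1 and ERK feedback genes, 18 fell and 7 rose (median -0.61). The AP-1 subunit FOSL1 went from 313, 340.0 and 341 CPM to 32, 29.6 and 33.7 CPM and the ETS factor ETV4 from 90.2, 92.4 and 97.6 CPM to 6.65, 5.05 and 4.66 CPM. JUND, another AP-1 subunit, rose 5.13-fold (32.5, 32.7 and 40.5 CPM to 177, 179 and 187 CPM). Outside the list, the ERK phosphatase DUSP9 had 3 counts in the 3 DMSO libraries and 271 in the 3 JQ1 libraries. Its ratio was 99.8, with an exact 95% counting interval of 33.8 to 487. The YAP and TEAD list, which holds the factors themselves beside their targets, was divided, 12 higher and 14 lower of 26. ANKRD1 was 2.94-fold higher and the ectonucleotidase NT5E 4.01-fold lower. Of 26 Notch genes 11 rose and 9 fell: the ligand JAG2 rose 3.74-fold and the target HES1 fell 2.93-fold. Among receptors outside these lists, FGFR3 went from 4.29, 3.38 and 3.97 CPM to 65.7, 66.2 and 62.6 CPM.

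The series title concerns invasion, and genes of the matrix, the cytoskeleton and cell guidance changed as follows. Of 33 collagens and collagen-processing enzymes, 19 fell, 17 at least 2-fold, and 9 rose. COL17A1, of the hemidesmosome, went from 6.87, 6.76 and 6.48 CPM to 0.275, 0 and 0.239 CPM. The basement membrane collagen COL4A2 fell 4.02-fold from 231, 230.0 and 221 CPM, the anchoring fibril collagen COL7A1 4.31-fold, COL13A1 3.24-fold and the collagen chaperone SERPINH1 3.31-fold. The hydroxylases PLOD2 and P4HA1 rose 2.06-fold and 2.21-fold. Among 31 extracellular proteases and inhibitors, 14 fell and 10 rose. Urokinase (PLAU) went from 346, 345 and 356 CPM to 61.3, 62.6 and 61.7 CPM and the metalloprotease ADAM8 from 81, 78.8 and 85.5 CPM to 12.1, 10.4 and 9.92 CPM. The inhibitors TIMP2 and neuroserpin (SERPINI1) were higher, TIMP2 at 1662, 1699 and 1722 CPM against 709, 715 and 684 CPM and SERPINI1 at 39.3, 35.2 and 37.9 CPM against 2.83, 2.07 and 2.86 CPM. Of the 8 markers of the cell line, 6 fell and 1 rose (median -1.02): CAV1 fell 3.31-fold, vimentin 2.38-fold, moesin 2.23-fold, SPARC 2.14-fold, AXL 1.92-fold and CD44 1.23-fold, while EGFR rose 1.27-fold (409, 435 and 326 CPM to 505, 504 and 473 CPM). FN1 was at 696, 723 and 534 CPM in DMSO and 607, 620 and 606 CPM in JQ1 and was not called (adjusted p = 0.382 by edgeR); without DMSO replicate 3 it passed as lower (log2 -0.22, adjusted p = 1.12e-10 by edgeR), as it did under total count scaling (log2 -0.21, adjusted p = 0.0479 by edgeR). Actin, myosin and their regulators were divided, 13 lower and 8 higher of 28, with TPM4 3.77-fold, VASP 3.52-fold and zyxin (ZYX) 2.95-fold lower and the non-muscle myosin MYH9 1.93-fold higher. Tubulins fell in 8 of 15 cases: TUBB, among the most abundant genes, went from 4036, 4095 and 4019 CPM to 1139, 1097 and 1128 CPM and TUBA1B from 1825, 1800.0 and 1902 CPM to 311, 282 and 306 CPM. The neuronal isotype TUBB3 rose instead, from 56.7, 58.4 and 65.8 CPM to between 243 and 269 CPM.

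The lists of axon guidance and presynaptic genes included some of the extremes in both directions. Of 44 axon guidance ligands and receptors, 24 fell and 17 rose (median -0.31). The receptor ROBO4 went from 30, 30.2 and 31.1 CPM to 0.659, 0.568 and 0.478 CPM (52.7-fold lower) and the semaphorin SEMA6B fell 11.2-fold, whereas SEMA6C rose 6.24-fold and the plexin PLXNA3 3.76-fold. The largest rise of the list was that of the netrin receptor UNC5B, a low gene with 2, 1 and 3 counts in DMSO and 52, 29 and 50 in JQ1 (22.7-fold). Of 26 presynaptic genes, 14 rose, 9 at least 2-fold, and 10 fell, 8 at least 2-fold. The active zone scaffold bassoon (BSN) rose from 0.353, 0.273 and 0.151 CPM to 8.84, 10.9 and 9.03 CPM (36.2-fold higher). RIMS2, a partner at the active zone, fell from 18.3, 21.5 and 19 CPM to 0.494, 0.568 and 0.598 CPM (35.1-fold lower), and the calcium sensor SYT2 fell from 12.3, 11.9 and 10.5 CPM to 0.439, 0.0568 and 0.0598 CPM, in which the 2 lowest libraries are each at 1 count. UNC13D, which primes granules in blood cells, fell 4.22-fold and UNC13B rose 2.65-fold.

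Chromatin enzymes, the clock and cell death genes had no common direction. Of 62 histone acetylation and methylation enzymes 27 rose and 26 fell, with UHRF1, which guides maintenance DNA methylation, 13.7-fold lower, the methyltransferase NSD2 3.68-fold lower, and the deacetylases SIRT2 and HDAC5 3.51-fold and 3.26-fold higher. Of 18 clock genes 9 rose and 8 fell. The repressor BHLHE40 went from 72.3, 74 and 71.8 CPM to 8.29, 6.53 and 6.51 CPM, and DBP, an output gene of the clock, rose 3.77-fold. Of 37 apoptosis regulators 21 fell and 12 rose (median -0.29). Survivin (BIRC5), which also serves mitosis, went from 153, 153 and 177 CPM to 16.7, 14.6 and 16 CPM, the BH3 protein BID fell 4.76-fold and the death receptor TNFRSF10A 4.14-fold, while BCL2L11 (BIM) rose 1.84-fold and RIPK1 2.21-fold.

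Outside the lists, the genes with the largest changes were of mixed function. The organic anion transporter SLCO4A1 (chr20:62642445-62685785) had the widest fall among genes that reached a mean of 5 CPM in DMSO or JQ1, from 69.2, 71.6 and 69.1 CPM to 1.32, 0.795 and 0.837 CPM, 70.2-fold (log2 -6.13 ± 0.11, adjusted p = 1.21e-13 by edgeR). The scavenger receptor DMBT1 fell 50.6-fold, SIGIRR, a brake on interleukin 1 receptor signalling, 37.7-fold, the tight junction gene CLDN2 34.4-fold, PEAR1, a platelet receptor, 34.1-fold, the ubiquitin ligase MARCHF4 30.2-fold and tenascin C (TNC) 25.5-fold. Tenascin C was the least even of these, with 0.934, 0.114 and 0.478 CPM in the JQ1 libraries. Among the rises, EFR3B, which anchors a lipid kinase to the plasma membrane, went from 2.58, 3.38 and 4.07 CPM to 94.1, 99.1 and 96.2 CPM (28.8-fold), the phospholipid flippase ATP8A1 rose 19.3-fold, the tubulin polymerisation protein TPPP 16.5-fold, the natriuretic peptide precursor NPPB 15.6-fold and the glypican GPC5 14.5-fold. By CPM, the proliferation marker MKI67 fell from 1089, 1119 and 809 CPM to 85.1, 77.7 and 74.5 CPM, with the lowest DMSO value in replicate 3. The transglutaminase TGM2 fell 5.94-fold from 1061, 1060.0 and 958 CPM and the chromatin protein HMGA1 2.55-fold from 2168, 2228 and 2295 CPM. The imprinted gene PEG10 rose from 282, 296 and 269 CPM to 1980.0, 2068 and 1983 CPM, RHOBTB3 5.36-fold, spectrin alpha (SPTAN1) 3.6-fold and APLP2 2.69-fold. The cytoskeletal giant AHNAK rose 1.35-fold, with DMSO replicate 3 lowest (4183, 4477 and 3034 CPM to 5340.0, 5471 and 4958 CPM). Its log2 change of 0.43 was 0.27 without that library, and its call was lost with no filter on low counts (adjusted p = 0.076 by edgeR).

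How a gene changed was related to its level and little to its size. In the lowest sixth of the tested genes by mean level, 36% fell and 19% rose at least 2-fold, and in the highest sixth 6.77% fell and 11.5% rose at least 2-fold. Spearman's rho across 12398 genes between mean log2 CPM and log2 change was 0.17. Genes are not independent replicates, and no p is given. The mean level was taken over all 6 libraries, so it holds the same JQ1 values as the change. A low gene can also pass the filter through 1 group alone, which favours large changes in the lowest sixth. The relation to level is therefore a description only. By transcript length the median log2 change ran from -0.10 in the shortest sixth (up to 2043 bases) to 0.14 in the longest (6438 bases and more), and from -0.03 to 0.08 when DMSO replicate 3 was left out. Spearman's rho with transcript length was 0.08 over all libraries and 0.04 without that library. Genes whose longest transcript has 1 exon rose at least 2-fold more often than they fell, as did the highest sixth by level. Of 424 such genes, 16.7% rose and 12% fell at least 2-fold. Histone cluster genes, of which 20 of 23 rose and 0 fell at least 2-fold, were not set apart in these shares. Their part in them was not tested.

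**Figure D5:**
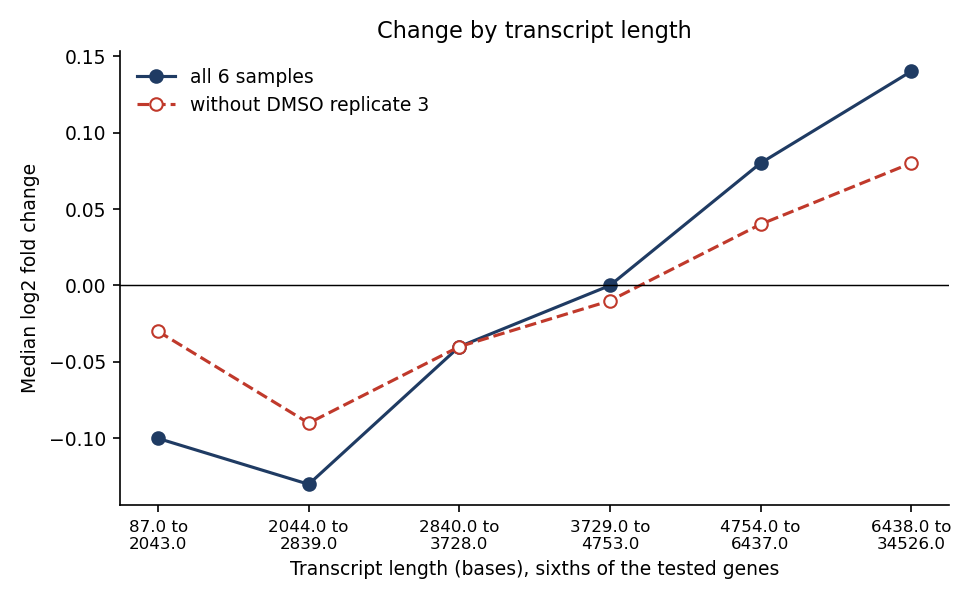
Median log2 fold change of JQ1 over DMSO by sixths of the tested genes in order of transcript length, with all 6 libraries (filled circles) and without DMSO replicate 3 (open circles). The medians run from -0.10 to 0.14 with all libraries and from -0.03 to 0.08 without that replicate.

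Some neighbouring genes changed in the same direction. Runs of at least 4 consecutive tested genes, all called and at least 2-fold changed in 1 direction, were counted. This measure was added after the values had been seen. There were 20 runs of falls and 8 of rises, the longest of 6 genes (positions from GENCODE v29, GRCh38). Of all tested genes, 18.0% fell and 11.5% rose at least 2-fold. How many runs these shares alone would give was not tested, so the counts are a description only. One run was the S100 cluster of calcium-binding proteins at chr1:153537147-153631360, where S100A5, S100A4, S100A3, S100A2, S100A16 and S100A13 had log2 changes of -3.46, -1.11, -3.61, -3.06, -2.75 and -1.03. HOXB3, HOXB4, HOXB7 and HOXB9, of a homeobox cluster at chr17:48548870-48633572, had -3.80, -2.96, -2.96 and -3.17. On chromosome 3 (chr3:122527924-122793824) the interferon-stimulated PARP9, DTX3L and PARP14 and their neighbour HSPBAP1 had -2.52, -2.63, -1.87 and -1.92. A pair of runs of rises lay in the major histone cluster, H2BC4 to H4C8 (chr6:26114873-26285638) and H2AC13 to H2BC17 (chr6:27808199-27893843). Another run, at chr19:18193182-18281622, joined MPV17L2, RAB3A, IQCN and JUND with rises of 1.10, 2.75, 4.66 and 2.36 on the log2 scale. Reads that run past the end of 1 gene into the next were not separated here, and whether neighbours share such reads was not tested.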

How the data were processed

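Poly(A) RNA of MDA-MB-231 cells was sequenced from 3 DMSO and 3 JQ1 samples with a stranded mRNA kit, per the labels' protocols. Each library has 1 table of raw counts by gene symbol, deposited by the authors without normalization. Trimmomatic, HISAT2, HTSeq and hg38 are named in the submitters' processing notes. Versions, settings, gene annotation and strand setting of counting: not given in the sources used here. Overlapping antisense genes cannot be told apart. Samples were grouped by title and treatment label. As nothing says that replicates were separate cultures, p-values measure only the spread between samples, and that may be technical.

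Counts were analysed as deposited in R 4.3.3 with edgeR 4.0.16: filterByExpr by group (minimum count 10, minimum total 15), TMM scaling and a quasi-likelihood F test with 4 residual degrees of freedom, fitted to the 6 libraries only. Benjamini-Hochberg adjustment ran over all 12442 genes, and an adjusted p under 0.05 was called. The common biological coefficient of variation was 0.0528. The pipeline was tested on simulated data. Levels are CPM from the library total times its TMM factor, and each SE is the log2 change divided by the square root of its F. Intervals cover counting error only.

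Alternatives were other scalings, DESeq2 1.42.0, other filters, all 12 libraries, a replicate block and leaving out each replicate. The members, the 45 gene lists and the rule for named genes were chosen with earlier results of these data known. The rule took the 20 largest and 20 smallest fold changes of called genes whose groups did not overlap and whose larger group mean reached 5 CPM, the 12 largest shifts in CPM each way, up to 4 genes per list by adjusted p with up to 2 against the majority, and a fixed set. ATP6V0D1, CSF2, UNC5B, IRF7, IFI6, CDC23, SPARC, FN1, KRT8 and the genes in runs of neighbours were chosen after their values were seen. Several of these genes are not reported here but are part of all counts. GENCODE v29 positions matched 16233 of 16384 symbols (99.1%). Promoters matched 10113 tested genes (81.3%); 29.4% of these had more than 1 listed start, and the first was used. Sequences are from RefSeq (GRCh38.p14).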

Additional observations from a re-analysis of the deposited data

How the results depend on the processing

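The 4 counts of called genes kept within 1.5 times their value under all 14 alternatives. Leaving out 1 library at a time gave 4882 to 5292 genes higher and 4953 to 5346 lower, and DESeq2 gave 4861 and 4939. Between 92.9% and 99.8% of the calls were made again in the same direction, and 0 calls were made in the other direction by any alternative. Total count scaling, which shifted the median by -0.12, had the lowest share, with 4375 higher and 5828 lower. Of 233 genes named, 226 kept direction and side of the threshold under total count scaling, 229 under upper-quartile scaling and all 233 under DESeq2. MYC and KRT8 changed sign, to -0.07 and -0.08 under total count scaling and to -0.01 and -0.02 under upper-quartile scaling. The cause was not tested. At this depth genes with few counts were left untested, 3942 of 16384 in all.

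The replicate numbers were shared between the groups, and whether they pair the samples was not tested. Deviations from the group means of DMSO and JQ1 libraries with the same number correlated at 0.013, 0.209 and 0.259 across 6448 genes. DMSO replicates 2 and 3 correlated best with the JQ1 library of the same number, and DMSO replicate 1 with JQ1 replicate 2 (0.158). A fit with the replicate number as a block called 5147 genes higher and 5177 lower, of which 1437 rose and 2234 fell at least 2-fold, and all 233 named genes kept their call.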
